A study of Mus musculus with 12 samples.

Results

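The genes of cholesterol efflux and storage were 8 in number, *Abca1*, *Abcg1*, *Apoe*, *Apoc1*, *Soat1*, *Nceh1*, *Mylip* and *Ch25h*, chosen by symbol from the 22947 genes with a value in epididymal white adipose tissue (eWAT). Each gene's value was the sum of its transcripts in FPKM, which scales fragments by transcript length and library size. The tissue came from male C57BL/6J mice that were 21 weeks old after 16 weeks on 1 of 4 diets, with 3 sequenced mice per group and 12 libraries in all. The study's groups were larger, and its methods call the sequenced samples representative without saying how they were picked. The ND group received a normal diet (12% of kcal from fat), and the HFD group a high-fat diet (45% of kcal from fat). The CLE group received the same high-fat diet with 1.5% (w/w) of an ethanol extract of chrysanthemum leaf, and the LU group the high-fat diet with 0.003% (w/w) of the flavonoid luteolin. No mouse carried a genetic change, and no extract or luteolin was given with the normal diet.

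Cells cannot take the sterol ring apart, so cholesterol that enters a cell is either stored as an ester or handed out again. SOAT1 in the endoplasmic reticulum joins cholesterol to a fatty acid for storage in lipid droplets, and NCEH1 is a hydrolase that releases it from stored esters. ABCA1 passes cholesterol and phospholipid to lipid-poor apolipoproteins, ABCG1 passes cholesterol to formed high-density lipoprotein (HDL), and the secreted apolipoproteins APOE and APOC1 are carried on lipoproteins. MYLIP is a ubiquitin ligase that marks membrane proteins for degradation, and CH25H makes an oxysterol from cholesterol. Oxysterols activate the liver X receptors, nuclear receptors for which *Abca1*, *Abcg1*, *Apoe*, *Apoc1* and *Mylip* are known targets. In fat tissue, adipocytes hold a large pool of free cholesterol and macrophages take up lipid from their surroundings.

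Differences were tested with limma on log2(FPKM + 1) over the 12775 genes with at least 1 FPKM in at least 3 libraries. A call required a p under 0.05 after Benjamini-Hochberg adjustment over all these genes and a fold change over 1.5. Of the 8 genes, 7 passed the filter and *Ch25h* did not. The gene totals of the libraries lay between 435095 and 455040 FPKM, and the files give no read depth. The whole tissue was extracted, so that fewer cells of a type and less RNA per cell cannot be told apart. The labelled tissue was checked on its adipocyte markers, whose summed level over 8 genes was 29480 to 31021 FPKM in the ND group, 18379 to 20494 in the HFD group, 26063 to 28939 in the CLE group and 24567 to 29962 in the LU group. This sum is led by *Fabp4*, with means of 19732 FPKM in the ND group and 10999 FPKM in the HFD group. The summed level of 10 macrophage markers was 382 to 559 FPKM in the ND group, 2347 to 2714 in the HFD group, 637 to 902 in the CLE group and 1001 to 1101 in the LU group, and none of the 10 was listed at 0. Of these 10, 9 were called higher in HFD than in ND mice, 9 were called lower with CLE and 9 with LU. Of the other marker lists, 4 of 5 mesothelial, 2 of 4 tested liver and 1 of 5 endothelial markers were called lower in HFD than in ND mice, and 1 of 5 progenitor markers, *Col1a1*, was called higher. Against the HFD group, 2 endothelial, 1 mesothelial and 1 liver marker were called higher with CLE, 3 endothelial and 1 mesothelial with LU, and *Col1a1* lower with both (-1.48 and -0.97). Beside these marker counts, 14.9% of all tested genes were called higher and 10.8% lower in HFD than in ND mice. Against the HFD group the shares were 6.33% higher and 10.1% lower with CLE, and 4.81% and 7.64% with LU. The part of these cell types in the results was not tested. No T cell (3 tested) or epididymis (1 tested) marker was called by limma in these comparisons. At an unadjusted p under 0.05 by limma there were 0 T cell markers and 1 epididymis marker for HFD against ND. For CLE against HFD there were 1 and 0, and for LU against HFD 0 and 0. No skeletal muscle marker passed the filter, and the epididymal *Lcn5* was listed at 0 throughout. The titles of 4 libraries (LU mouse 2, CLE mouse 4, and mice 3 and 4 of the ND group) carry the letter R, whose meaning is not given, their columns share a suffix that the others lack, and no HFD library is among them.

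In the mice on the high-fat diet the storage pair *Soat1* and *Nceh1* and the transporter *Abcg1* were higher, and *Apoe* was lower. In the HFD group compared with the ND group, 3 of the 7 tested genes were called higher, beside 14.9% of all tested genes, and 1 was called lower, beside 10.8% of all. With CLE, 1 of the 7 was called higher than in the HFD group (6.33% of all tested genes) and 2 were called lower (10.1% of all). With LU, 2 were called higher (4.81% of all) and 2 lower (7.64% of all), and without LU mouse 3 only 2 of the 7 were called. The median log2 fold change of the 7 genes was 0.18 for HFD against ND, -0.07 for CLE against HFD and -0.04 for LU against HFD. Over all tested genes the same medians were -0.02, 0.01 and 0.03. The CLE and LU comparisons use the same 3 HFD mice, as does the comparison of HFD with ND.

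**Figure D1:**
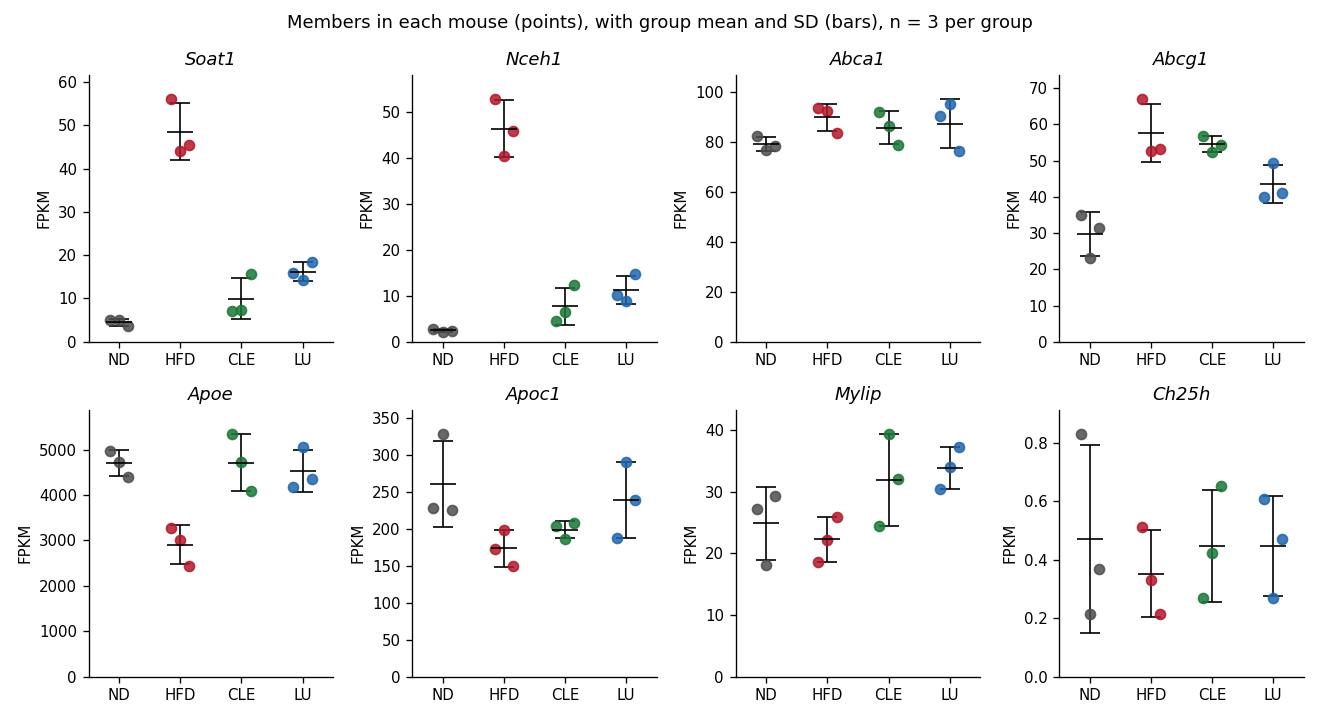
FPKM (vertical axes, each starting at 0) of the 8 genes in each mouse of the ND, HFD, CLE and LU groups, with the group mean and SD (n = 3). The HFD mice stand above all other mice for *Soat1* and *Nceh1* and below all other mice for *Apoe*.

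The storage pair showed the largest changes of the 8 genes. *Soat1* (chr1:156424525-156474331, minus strand, GRCm38) was at 5.01, 4.97 and 3.57 FPKM in ND mice 2, 3 and 4 and at 56.1, 44.0 and 45.5 FPKM in HFD mice 12, 15 and 18. It was at 7.08, 7.30 and 15.6 FPKM in CLE mice 2, 4 and 11 and at 15.8, 14.2 and 18.5 FPKM in LU mice 2, 3 and 8. The HFD mice did not overlap with any other group, while CLE mouse 11 lay within the range of the LU mice. The mean was 4.52 ± 0.82 FPKM (SD, n = 3) in the ND group and 48.5 ± 6.58 FPKM in the HFD group, a 10.7-fold difference with a log2 fold change of 3.17 (SE 0.24, adjusted p = 1.73e-06). Compared with the HFD group, the level was 4.86-fold lower with CLE (log2 fold change -2.25, adjusted p = 5.80e-05) and 3.0-fold lower with LU (-1.53, adjusted p = 0.00104).

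*Nceh1* (chr3:27182965-27284608, plus strand) moved in the same way. It was at 2.76, 2.22 and 2.39 FPKM in the ND mice and at 52.7, 40.4 and 45.8 FPKM in the HFD mice. Levels with CLE were 4.53, 6.41 and 12.2 FPKM, and with LU they were 10.2, 8.86 and 14.6 FPKM. The order of the groups was the same as for *Soat1*, with the CLE and LU mice overlapping between the ND and HFD mice. The means were 2.46 ± 0.27 FPKM in the ND group and 46.3 ± 6.19 FPKM in the HFD group, an 18.8-fold difference (log2 fold change 3.77, SE 0.27, adjusted p = 1.22e-06). The rise placed *Nceh1* at rank 36 and *Soat1* at rank 76 of the 12775 tested genes by log2 fold change. With CLE the level was 5.99-fold lower than in the HFD group (-2.53, adjusted p = 5.41e-05), and with LU it was 4.12-fold lower (-1.97, adjusted p = 0.000465). The calls of both genes in the 3 comparisons with the HFD group were kept under each of the 26 alternatives.

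Since both genes rose together, the stretch before the start of each is shown, as given by RefSeq on GRCm38.p6 from 250 bases before the start to 50 bases after it. The capitals mark motifs found by a search of both strands, namely the CCAAT box, the E-box CACGTG and the core motif GAGGAAG of the myeloid factor PU.1.
*Soat1*, chr1:156474279-156474578, minus strand: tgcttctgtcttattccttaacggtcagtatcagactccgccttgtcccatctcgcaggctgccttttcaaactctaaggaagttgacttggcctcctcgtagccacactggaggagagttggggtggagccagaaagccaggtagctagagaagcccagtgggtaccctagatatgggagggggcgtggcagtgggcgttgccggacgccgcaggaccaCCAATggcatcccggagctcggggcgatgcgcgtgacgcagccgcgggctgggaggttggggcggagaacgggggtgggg
*Nceh1*, chr3:27182754-27183053, plus strand: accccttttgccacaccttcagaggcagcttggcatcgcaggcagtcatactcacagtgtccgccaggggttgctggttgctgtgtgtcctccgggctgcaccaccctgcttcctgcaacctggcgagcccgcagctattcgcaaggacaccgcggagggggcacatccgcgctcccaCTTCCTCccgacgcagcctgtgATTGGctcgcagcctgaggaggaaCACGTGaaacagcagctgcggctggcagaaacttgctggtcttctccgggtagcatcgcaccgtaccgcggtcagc
In *Soat1* the capitals are a CCAAT box on the printed strand, whose first base lies 30 bases before the start. In *Nceh1* they are, from left to right, the PU.1 core and a CCAAT box, both on the opposite strand, and an E-box, with first bases 72, 50 and 26 bases before the start. Over all 32851 promoter windows of the same length, 37.4% held a CCAAT box, 13.6% the PU.1 core and 7.15% the E-box. The matches describe the letters of these windows and no binding was measured.

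The balance within the pair was read as a ratio. Per library, the ratio of *Nceh1* to *Soat1* in FPKM, which is scaled by transcript length, was 0.447 to 0.669 in the ND mice and 0.918 to 1.01 in the HFD mice. It was 0.640 to 0.878 in the CLE mice and 0.624 to 0.790 in the LU mice. The HFD mice had the highest ratios, without overlap with any other group (exact two-sided permutation test, p = 0.1 for each, the smallest that 3 against 3 mice allow). The CLE and LU mice overlapped with the ND mice in this ratio, with p = 0.2 and p = 0.3 by the same exact test.

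The macrophage markers moved along with both genes. Their median log2 fold change of HFD against ND was 2.44, from 0.15 for *Mertk*, which was not called, to 4.08 for *Cd68*. The log2 fold changes of HFD against ND were 3.92 for *Adgre1*, a macrophage surface marker, 3.45 for the integrin *Itgam* and 2.56 for the lysozyme gene *Lyz2*. On this scale of FPKM + 1 the value of *Nceh1* (3.77) was larger than that of 8 of the 10 markers, and that of *Soat1* (3.17) larger than that of 7. *Adgre1* and *Cd68*, the markers above *Nceh1*, had higher ND means (8.86 and 14.9 FPKM) than *Nceh1* (2.46 FPKM). The scale understates the change of low genes, so this order can depend on the added 1 FPKM. Per 100 FPKM of summed macrophage markers, *Nceh1* was at 0.398 to 0.721 FPKM in the ND mice and at 1.61 to 1.95 FPKM in the HFD mice. On the same scale *Soat1* was at 0.889 to 1.31 FPKM in the ND mice and at 1.75 to 2.07 FPKM in the HFD mice. The HFD mice thus stood above the ND mice on this scale as well, although the sum is led by *Lyz2*, the most abundant of the 10 markers. On the log2 scale *Adgre1*, *Cd68* and *Itgam* rose more than *Lyz2*, and the other markers less. The mean sum was 445 FPKM in the ND group and 2523 FPKM in the HFD group, a smaller rise in proportion than that of either gene. The higher HFD values on this scale follow from the division, and sums of other markers were not tested. Across the 12 libraries, which share 4 group means, Pearson's r of log2(FPKM + 1) with the summed markers was 0.98 for *Soat1* and 0.98 for *Nceh1*. After the group means were removed it was 0.68 and 0.54. The part of the macrophage content in these results was not tested.

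**Figure D2:**
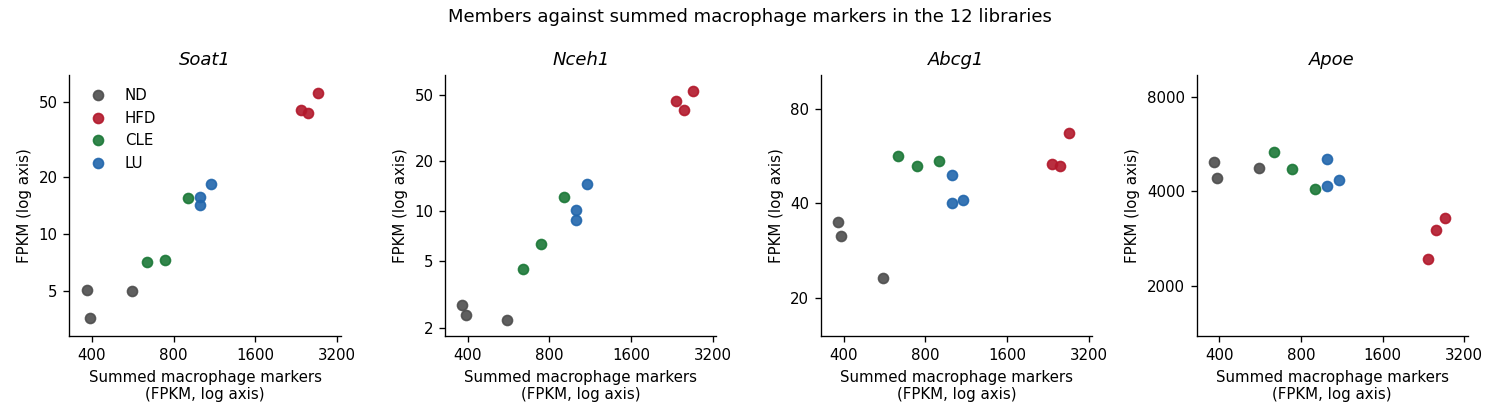
FPKM of *Soat1*, *Nceh1*, *Abcg1* and *Apoe* (vertical log axes) against the summed FPKM of 10 macrophage markers (horizontal log axis), 1 point per library, coloured by group. *Soat1* and *Nceh1* climb with the sum across all 4 groups, *Apoe* is lowest in the 3 HFD libraries at 2347 to 2714 FPKM of markers, and *Abcg1* is as high in the CLE libraries as in the HFD libraries.

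Among all tested genes, those with the highest r to *Soat1* over the 12 libraries were *Lcp1* (0.994), *P2ry6* (0.994) and *Tyrobp* (0.994), of which *Lcp1* encodes a leukocyte actin-bundling protein and *Tyrobp* a signalling adaptor of myeloid cells. For *Nceh1* they were *Tlr13* (0.998), *Tnfrsf1b* (0.997) and *Myo1f* (0.997), a toll-like receptor, a TNF receptor and a myosin of leukocytes. The r between *Soat1* and *Nceh1* was 0.99 over the libraries and 0.89 after removal of the group means. Among the 12774 other genes, *Nceh1* ranked 19 in likeness to *Soat1*, and *Soat1* ranked 57 in likeness to *Nceh1*.

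Of the ABC transporters, *Abcg1* was called in the HFD group and *Abca1* was not. *Abcg1* (chr17:31057675-31117988, plus strand), the transporter that loads HDL, was at 34.9, 23.2 and 31.5 FPKM in the ND mice and at 67.0, 52.7 and 53.3 FPKM in the HFD mice. The CLE mice had 56.7, 52.5 and 54.4 FPKM and the LU mice 40.1, 49.4 and 41.1 FPKM. The CLE mice lay within or close to the range of the HFD mice, and the LU mice lay between the ND and HFD mice without overlap with either. The mean rose from 29.9 ± 6.05 FPKM to 57.7 ± 8.09 FPKM with the high-fat diet, by 1.93-fold (log2 fold change 0.94, SE 0.15, adjusted p = 0.000314). With CLE the log2 difference from the HFD group was -0.07 (95% interval -0.39 to 0.25, adjusted p = 0.75), and with LU it was -0.39 (-0.72 to -0.07, adjusted p = 0.0684). Neither was called, and the CLE value turned to 0.04 without HFD mouse 12. The macrophage marker sum was lower in all CLE mice than in all HFD mice, whereas *Abcg1* overlapped between them. Per 100 FPKM of these markers *Abcg1* was at 4.14 to 9.13 FPKM in the ND mice, 2.10 to 2.47 in the HFD mice, 6.04 to 8.91 in the CLE mice and 3.73 to 4.94 in the LU mice. The HFD mice lay below all others on this scale, and the CLE mice lay within the range of the ND mice. The mean marker sum was 445 FPKM in the ND group and 2523 FPKM in the HFD group. It rose more in proportion than *Abcg1*, so the lower HFD values on this scale follow from the division. Pearson's r of *Abcg1* with the sum was 0.66 over the libraries and -0.51 after removal of the group means. Which cells express *Abcg1* was not tested.

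*Abca1* (chr4:53030787-53159895, minus strand), which loads lipid-poor apolipoproteins, had group means from 79.3 to 90.0 FPKM, the narrowest range in proportion among the 7 tested genes. It was at 82.5, 77.0 and 78.3 FPKM in the ND mice, at 93.7, 92.4 and 83.9 in the HFD mice, at 92.1, 86.6 and 78.9 in the CLE mice and at 90.6, 95.5 and 76.5 in the LU mice. The ND and HFD mice did not overlap, but every other pair of groups did. HFD against ND gave a log2 fold change of 0.18 (95% interval -0.04 to 0.40, adjusted p = 0.149), CLE against HFD gave -0.07 (-0.28 to 0.15, adjusted p = 0.631) and LU against HFD gave -0.04 (-0.26 to 0.17, adjusted p = 0.768). The last of these turned to 0.05 without LU mouse 8. The ratio of *Abca1* to *Abcg1* was 2.36 to 3.33 in the ND mice, 1.40 to 1.75 in the HFD mice, 1.45 to 1.65 in the CLE mice and 1.86 to 2.26 in the LU mice. The ND mice lay above all others in this ratio (exact two-sided permutation test, p = 0.1 against each group).

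The value of *Abca1* depended on which rows of the table were counted. The annotated full-length transcript held 53.3% of the summed value over all libraries, and 8 transcripts assembled from the reads, which share part of its splicing, held 45.6%. Of the assembled ones, the most abundant spanned chr4:53030502-53050926, which is the 3′ part of this minus-strand gene, and it was at 29.2 ± 1.20, 28.1 ± 5.54, 31.8 ± 4.02 and 32.2 ± 2.48 FPKM in the ND, HFD, CLE and LU groups. A shorter one at the 3′ end, chr4:53030502-53037719, was at 8.16 to 15.2 FPKM in the ND mice and near 0 in all 3 HFD mice, in CLE mice 2 and 4 and in LU mouse 2. It was at 4.51 FPKM in CLE mouse 11 and at 13.9 and 7.17 FPKM in LU mice 3 and 8. The annotated transcript alone was at 29.6 to 37.0 FPKM in the ND mice and at 48.6 to 66.8 FPKM in the HFD mice. On this transcript alone *Abca1* was called higher in the HFD group (log2 fold change 0.79, SE 0.25, adjusted p = 0.0270), and also without all the assembled rows (0.77, adjusted p = 0.0300). The sum over rows was thus not called while the annotated transcript was, and which of them follows the amount of ABCA1 transcript was not tested.

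**Figure D3:**
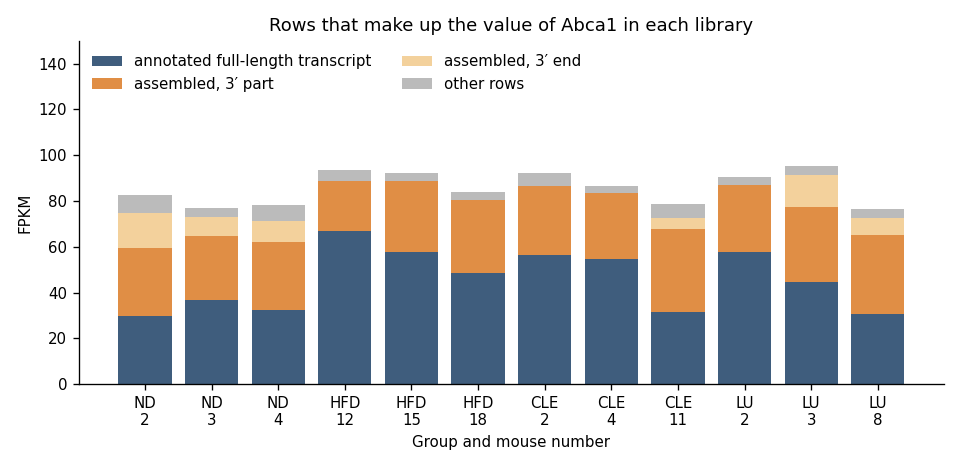
Stacked FPKM (vertical axis from 0) of the table rows that make up the value of *Abca1* in each of the 12 libraries, grouped by diet with mouse numbers below. The summed height stays between 76.5 and 95.5 FPKM, while the annotated full-length transcript is tallest in HFD mouse 12 and the assembled 3′ end row is near 0 in the 3 HFD libraries, in CLE mice 2 and 4 and in LU mouse 2.

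The promoter window of *Abca1* is shown because the gene is a textbook liver X receptor target. The capitals mark an E-box and the stretch closest to the receptor's element, a direct repeat of the half-site AGGTCA with 4 bases between the copies.
*Abca1*, chr4:53159846-53160145, minus strand: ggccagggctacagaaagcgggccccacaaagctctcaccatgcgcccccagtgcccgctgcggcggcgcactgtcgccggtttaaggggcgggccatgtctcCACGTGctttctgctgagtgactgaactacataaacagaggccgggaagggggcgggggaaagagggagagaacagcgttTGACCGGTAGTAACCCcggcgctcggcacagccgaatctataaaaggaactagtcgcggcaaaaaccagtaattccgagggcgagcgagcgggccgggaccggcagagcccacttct
The E-box comes first, and the repeat lies on the opposite strand, from 67 to 52 bases before the start. The repeat differs from the motif at 3 of its 12 letters, and 21.9% of all windows hold a match as close as that. None of the 6 genes with a window (*Abca1*, *Apoe*, *Soat1*, *Nceh1*, *Mylip* and *Ch25h*, with 8 windows in all) held the repeat at no more than 2 differences, which 3.02% of all windows did. None of the 8 windows held the half-site itself, found in 16.3% of all windows.

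*Apoe* was the most abundant of the 8 genes and moved against the storage pair. *Apoe* (chr7:19696109-19699188, minus strand), the apolipoprotein that lipoprotein receptors bind, was at 4967, 4729.7 and 4406 FPKM in the ND mice and at 3279.9, 3008 and 2435 FPKM in the HFD mice. Levels with CLE were 5341, 4723 and 4076 FPKM, and with LU they were 4173, 5058 and 4352 FPKM. All HFD mice lay below all other mice, and the other 3 groups overlapped. The mean fell 1.62-fold from 4701 ± 282 to 2908 ± 432 FPKM with the high-fat diet (log2 fold change -0.70, SE 0.13, adjusted p = 0.00104). It was 1.62-fold higher with CLE than in the HFD group (0.70, adjusted p = 0.00196) and 1.56-fold higher with LU (0.64, adjusted p = 0.00462). These changes were close to the fold limit of the call. Without HFD mouse 18, which had the lowest value, the log2 fold changes were -0.58, 0.58 and 0.52 and none of the 3 was called. Without LU mouse 3 the LU value was 0.56 and was not called either. With the highest row per gene in place of the sum, the values for HFD against ND (-0.58) and LU against HFD (0.58) were not called.

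The fall of *Apoe* was seen beside a fall of most adipocyte markers. In the HFD group 5 of the 8 adipocyte markers were called lower (10.8% of all tested genes), among them *Adipoq*, the gene of adiponectin (-0.84), and *Fabp4*, a fatty acid carrier (-0.85). *Pparg* (-0.44), *Slc2a4* (-0.30) and *Lpl* (0.04) were not called. With CLE 5 of the 8 were called higher than in the HFD group (6.33% of all tested genes), and with LU 2 were (4.81% of all). *Apoe* is also expressed by macrophages, whose markers changed in the opposite direction. The 3 genes with the highest r to *Apoe* were *1600014C10Rik* (0.96), the retinaldehyde dehydrogenase gene *Aldh1a1* (0.96) and *Fam213a* (0.96). Over the 12 libraries the r of *Apoe* with the summed macrophage markers was -0.82, and -0.21 after removal of the group means. The part of the cell composition in the level of *Apoe* was not tested.

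*Apoc1* (chr7:19689481-19692660, minus strand) lies 3448 bases from *Apoe* on the same strand and encodes a small lipoprotein component. It was at 229, 329 and 226 FPKM in the ND mice, at 173, 199 and 149.6 in the HFD mice, at 204, 186 and 208 in the CLE mice and at 188, 292 and 239.6 in the LU mice. The HFD mice lay below the ND mice and overlapped with the CLE and LU mice. The log2 fold change of HFD against ND was -0.57 (SE 0.18, adjusted p = 0.0202), which passed the p but fell short of the fold limit, and it was called under 5 of the alternatives that kept that limit. The adjusted p missed 0.05 without ND mouse 3, without HFD mouse 18 and without the letter R libraries, reaching 0.12 in the last. With CLE it was 0.20 (adjusted p = 0.417) and with LU 0.45 (adjusted p = 0.0862). The ratio of *Apoe* to *Apoc1* was 14.4 to 21.7 in the ND mice, 15.1 to 18.95 in the HFD mice, 19.6 to 26.2 in the CLE mice and 17.3 to 22.2 in the LU mice. All CLE mice were above all HFD mice in this ratio (exact two-sided permutation test, p = 0.1). The genes with the highest r to *Apoc1* were the ribosomal protein gene *Rps19* (0.96), *Emc2* (0.95) and *Mthfsl* (0.95).

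The genes around *Apoe* were read as well. Of 7 tested neighbours on chromosome 7, *Bcl3*, a regulator of NF-kB, was called higher in the HFD group (log2 fold change 0.91, adjusted p = 0.00136) and *Bcam*, a laminin receptor, was called lower (-0.85, adjusted p = 0.00431). These are shares near those of all tested genes, 14.9% higher and 10.8% lower. The log2 fold change was -0.10 for *Tomm40*, which lies next to *Apoe* on the upstream side, -0.05 for *Apoc2* and 0.08 for *Clptm1*, and none of these passed the test. *Bcam* was called higher with CLE (0.89) and with LU (0.85) than in the HFD group, beside 6.33% and 4.81% of all tested genes. *Bcl3* was called lower with LU (-0.60), beside 7.64% of all, and was not called with CLE (-0.41).

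*Mylip* (chr13:45389742-45412022, plus strand), the ubiquitin ligase gene, was at 27.2, 18.1 and 29.2 FPKM in the ND mice and at 18.6, 22.2 and 25.9 FPKM in the HFD mice. The CLE mice had 24.4, 39.3 and 32.0 FPKM and the LU mice 30.5, 33.9 and 37.3 FPKM. Only the LU mice lay apart from the HFD mice, and they also lay above the ND mice. HFD against ND gave a log2 fold change of -0.14 (adjusted p = 0.59), CLE against HFD gave 0.49 (adjusted p = 0.0812) and LU against HFD gave 0.59 (SE 0.20, adjusted p = 0.0474). The last was called, close to both limits, and 15 of 26 alternatives took the call away, with adjusted p between 0.0150 and 0.164 over all of them. It was lost without HFD mouse 12 or 15, without any one of the LU mice, and without ND mouse 2 or CLE mouse 11. The genes with the highest r to *Mylip* were *Tubb4a* (0.95), *Cyp4b1* (0.93) and *Tmem273* (0.92).

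*Ch25h* (chr19:34473778-34475164, minus strand) was near the lower end of the table. It was at 0.832, 0.214 and 0.369 FPKM in the ND mice, at 0.512, 0.332 and 0.214 in the HFD mice, at 0.268, 0.423 and 0.652 in the CLE mice and at 0.608, 0.268 and 0.471 in the LU mice. All groups overlapped. In a fit without the filter, HFD against ND gave a log2 fold change of -0.11 (95% interval -0.47 to 0.26, adjusted p = 0.689), and both CLE and LU against HFD gave 0.10 (adjusted p = 0.791 and 0.774). No change was called, and the files give no read depth for these low levels.

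Of 6 other oxysterol genes, 2 were below the filter. Of the 4 tested, 1 was called higher in the HFD group and 2 lower, beside 14.9% and 10.8% of all tested genes. *Cyp27a1*, a mitochondrial sterol hydroxylase, fell from a mean of 73.1 to 41.0 FPKM (log2 fold change -0.82, adjusted p = 0.000186), and *Hsd11b1*, which also interconverts oxysterols, fell from 182 to 49.1 FPKM (-1.87, adjusted p = 2.48e-05). Both were called higher with CLE (0.79 and 0.76) and with LU (0.66 and 0.78). *Gpr183*, the oxysterol-sensing receptor of immune cells, rose from 0.424 to 2.72 FPKM in the HFD group (1.38, adjusted p = 2.86e-06) and was lower with CLE (-1.02) and LU (-0.97).

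**Figure D4:**
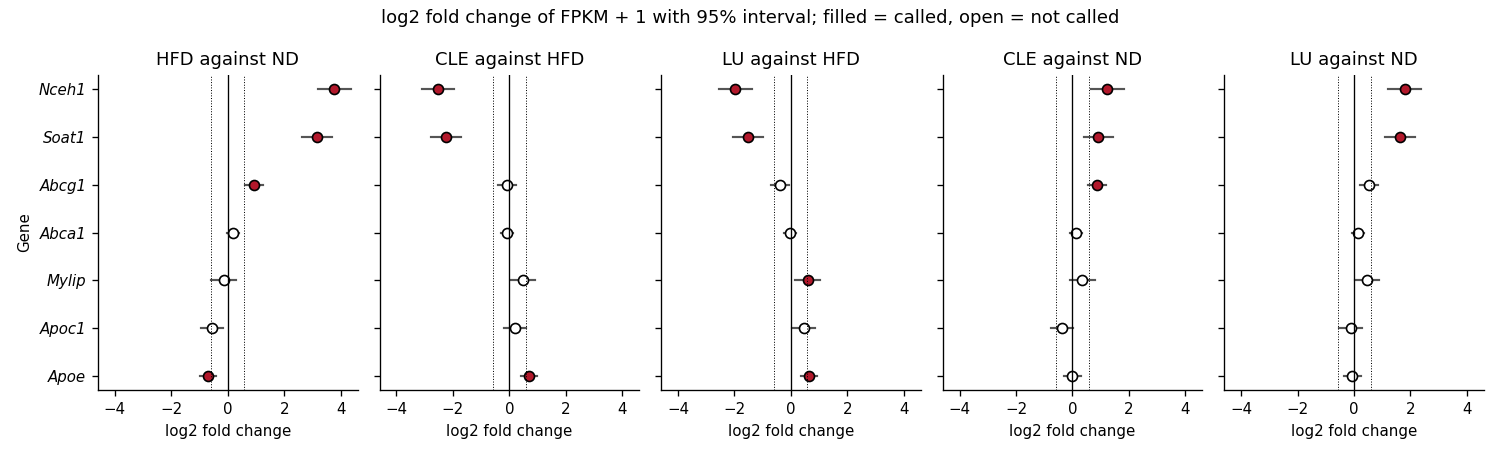
Log2 fold change of FPKM + 1 (horizontal axes) with its 95% interval for the 7 tested genes in 5 comparisons, with filled circles for called genes and dotted lines at a fold change of 1.5. *Soat1* and *Nceh1* are farthest from 0 in each panel, reaching 3.77 for *Nceh1* in HFD against ND, and the intervals of *Abca1* span 0 in all 5.

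The storage pair was also higher in both supplemented groups than in the ND group. In the CLE group 3 of 7 genes were called, all higher, beside 2.91% of all tested genes in either direction, and in the LU group 2 of 7 were called, both higher, beside 6.59%. *Soat1* was 2.21-fold higher in the CLE group (log2 fold change 0.92, adjusted p = 0.0499) and 3.58-fold higher in the LU group (1.64, adjusted p = 0.00206). *Nceh1* was 3.15-fold higher in the CLE group (1.24, adjusted p = 0.0259) and 4.57-fold higher in the LU group (1.799, adjusted p = 0.00214). *Abcg1* was 1.83-fold higher in the CLE group (0.87, adjusted p = 0.0143) and 1.46-fold higher in the LU group (0.54, adjusted p = 0.0337, under the fold limit). The log2 difference of *Apoe* was -0.003 for CLE (95% interval -0.29 to 0.29) and -0.06 for LU (-0.35 to 0.23). The macrophage marker sum was likewise above that of the ND mice in all CLE and all LU mice. Leaving out ND mouse 2, 3 or 4, or CLE mouse 4 or 11, left 1 gene called for CLE against ND. The call of *Soat1* against ND in the CLE group was lost under 21 of 27 alternatives and that of *Nceh1* under 9. Without the 4 libraries with the letter R, which leaves 1 ND mouse, the calls of CLE against ND and of LU against ND were lost.

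CLE and LU were not told apart by these genes. In the direct comparison, 0 of 7 were called by limma, of which 2 had an unadjusted p under 0.05, beside 0.00783% of all tested genes, 1 gene of 12775. The largest log2 difference of CLE from LU was -0.72 for *Soat1* (95% interval -1.25 to -0.20, unadjusted p = 0.0114, adjusted p = 0.891). *Abcg1* differed by 0.32 (5.30e-05 to 0.65, unadjusted p = 0.04997) and *Nceh1* by -0.56 (-1.14 to 0.03). The adjusted p of all 7 was at least 0.89. In level, *Abcg1* was higher in all CLE mice than in all LU mice. The p that missed the threshold does not show that the extract and the flavonoid act alike. The 1.5% extract and 0.003% luteolin are also different amounts of material.

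Further genes of cholesterol handling were read in 9 lists of 75 genes, of which 63 were tested. In the HFD group 16 were called higher and 12 lower than in the ND group. Against the HFD group, CLE had 12 called higher and 12 lower, LU had 7 higher and 10 lower, and between CLE and LU 0 were called by limma, with 4 of the 63 at an unadjusted p under 0.05. Over all tested genes the shares were 14.9% higher and 10.8% lower for HFD against ND, 6.33% and 10.1% for CLE, and 4.81% and 7.64% for LU. These counts include *Scd1*, which is listed at 0 in 9 libraries, and without it 15 were called higher in the HFD group, 11 lower with CLE and 9 lower with LU.

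Of 7 tested genes of lysosomal cholesterol release, 5 were called higher in the HFD group (14.9% of all tested genes) and 0 lower, and *Npc1* and *Scarb2* were not called. With CLE 4 were called lower (10.1% of all) and with LU 2 (7.64% of all). *Lipa*, the lysosomal acid lipase that opens lipoprotein cholesteryl esters, rose from 29.4 ± 1.09 to 250 ± 23.5 FPKM (log2 fold change 3.04, adjusted p = 1.48e-06), near that of *Soat1*. It was at 57.8 ± 21.3 FPKM in the CLE group (-2.15) and at 72.3 ± 18.9 FPKM in the LU group (-1.802). The sterol carrier *Npc2* rose by 0.92 and *Stard3* by 1.23 on the log2 scale, and the membrane proteins *Lamp1* and *Lamp2* by 0.75 and 0.64.

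Among 7 tested genes of esterification, hydrolysis and lipid droplets, 2 were called higher (14.9% of all tested genes) and 4 lower (10.8% of all) in the HFD group. *Plin2*, a coat protein of small droplets, rose from 265 ± 57.3 to 850 ± 39.1 FPKM (log2 fold change 1.70, adjusted p = 1.38e-05) and *Plin3* rose by 0.83. The hydrolases *Ces1d* and *Ces1f* fell (-2.00 and -2.53), as did *Lipe*, the hormone-sensitive lipase that also opens cholesteryl esters (-0.62), and *Dgat1* (-0.66). The neutral hydrolases thus did not move together, since *Nceh1* was higher and *Lipe*, which is also among the adipocyte markers, was lower in the same mice. With CLE, *Lipe*, *Ces1d* and *Ces1f* were called higher than in the HFD group (0.59, 1.70 and 1.64) and *Plin2* lower (-1.20). With LU, *Ces1d* and *Ces1f* were called higher (1.38 and 1.28) and *Plin2* lower (-0.96). Over all tested genes the shares were 6.33% higher and 10.1% lower with CLE, and 4.81% and 7.64% with LU.

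The liver X receptors themselves were not called. Of 5 receptors and partners, 0 were called by limma in any of the comparisons with the HFD group, and none had a log2 fold change beyond -0.25 for HFD against ND. *Nr1h3*, the receptor typical of fat and macrophages, was at 59.7 FPKM in the ND group and at 55.2 FPKM in the HFD group (-0.11, adjusted p = 0.275). At an unadjusted p under 0.05 there were 1 of 5 for HFD against ND, 1 for CLE against HFD and 2 for LU against HFD. *Rxra*, the shared partner, was 0.50 higher on the log2 scale with CLE than in the HFD group (adjusted p = 0.0062), under the fold limit.

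Of 8 tested genes known as receptor targets, 3 were called higher in the HFD group (14.9% of all tested genes), namely *Pltp*, *Arl4c* and *Scd1*. *Pltp*, which transfers phospholipid between lipoproteins, rose from 75.5 ± 2.78 to 397 ± 25.4 FPKM (2.38, adjusted p = 9.46e-07), was at 150 ± 33.2 FPKM with CLE and at 198 ± 40.3 FPKM with LU. *Arl4c* rose by 0.85. *Scd1* was listed at 0 in all ND, CLE and LU libraries and at 8592 to 10168 FPKM in the HFD libraries, so no fold is given. A value of exactly 0 in such a table can be a failed estimate, and the 0s of *Scd1* are not read as low expression. The call of *Scd1* rests on these 0s and is not read as a rise. In this comparison 5 of the 8 had an adjusted p under 0.05 by limma, *Scd1* included. Of these, *Smpdl3a* (0.44) and *Lpcat3* (0.26) were higher under the fold limit. *Srebf1* (-0.24) and *Lpl* (0.04) did not pass the p, so the list did not move as 1 group. Against the HFD group, 3 were called lower with CLE (10.1% of all) and 2 with LU (7.64% of all), again with *Scd1* included.

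Of 8 further efflux and HDL genes, 2 were called lower in the HFD group (10.8% of all tested genes). These were the transporters *Abca5* (-0.66) and *Abcg4* (-0.80). Both were called higher with CLE (0.76 and 0.84) and LU (0.72 and 0.67), beside 6.33% and 4.81% of all. *Abcg4*, the relative of *Abcg1*, was at 2.28 FPKM in the ND group and 0.881 FPKM in the HFD group, so the relatives changed in opposite directions. Of 13 tested sterol transfer proteins, 1 was called higher in the HFD group (14.9% of all), *Osbpl8* (1.18). Another 3 were called lower (10.8% of all), *Osbpl1a* (-1.03), *Scp2* (-1.03) and the outer mitochondrial membrane protein *Tspo* (-0.71). In this comparison 8 of the 13 had an adjusted p under 0.05 by limma, 4 of them under the fold limit. With CLE 4 were called higher (6.33% of all) and 1 lower (10.1% of all). With LU only *Osbpl8* was called, and it was lower (-0.85), beside 7.64% of all. In the LU group *Scp2* (0.55, adjusted p = 0.00431) and *Tspo* (0.50, adjusted p = 0.00476) were higher under the fold limit.

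**Figure D5:**
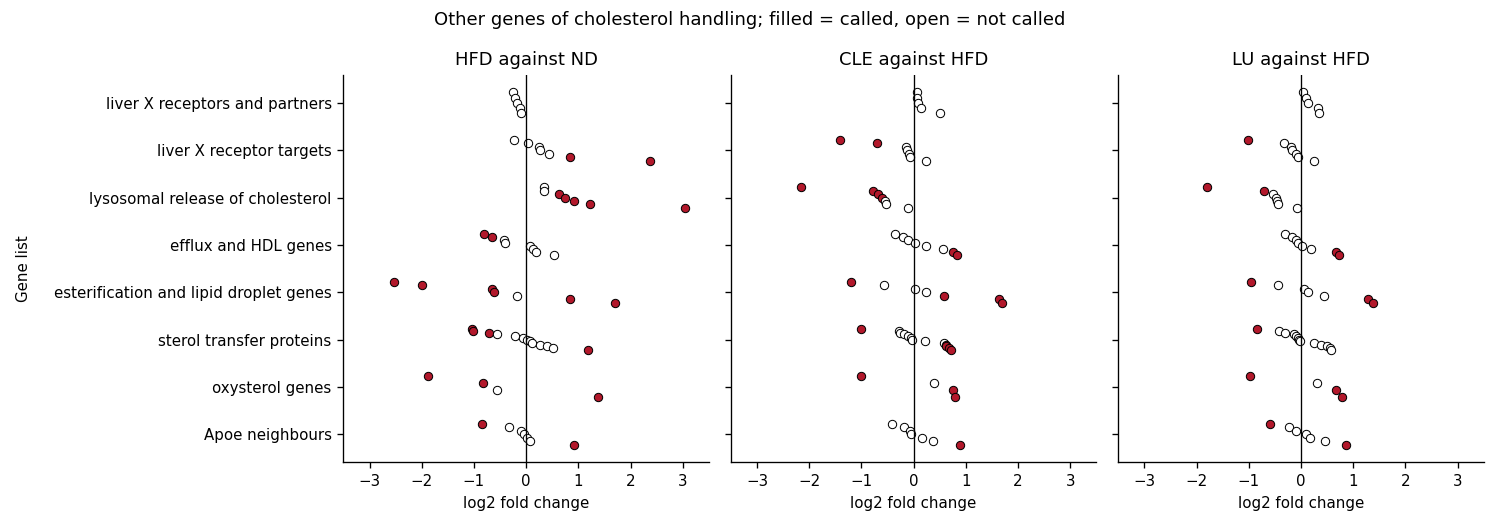
Log2 fold change of FPKM + 1 (horizontal axes) of the tested genes of 8 of the 9 lists (rows) for HFD against ND, CLE against HFD and LU against HFD, with filled circles for called genes. *Scd1*, listed at 0 in 9 libraries, is left out. The lysosomal list lies to the right of 0 in the left panel, up to 3.04 for *Lipa*, and no gene of the receptor list is filled in any panel.

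Likeness among the other members was read in the same way. Over the 12 libraries the r of *Apoe* was -0.82 with *Soat1* and -0.85 with *Nceh1*, and -0.33 and -0.51 after removal of the group means. *Apoe* and *Apoc1* had an r of 0.66, and 0.44 within groups. *Abca1* and *Abcg1* had an r of 0.64, and 0.46 within groups. The 3 genes most like *Abcg1* were the clathrin adaptor gene *Ap2a2* (0.95), *Polr1a* (0.92) and *Pde12* (0.91), and those most like *Abca1* were the ubiquitin ligase gene *Ube3a* (0.89), *Ranbp2* (0.88) and *Taok1* (0.87). These coefficients describe 12 libraries in 4 groups and carry no test.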

How the data were processed

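Total RNA of epididymal fat was made into paired-end mRNA libraries and quantified with Cuffdiff by the authors, as the study's methods state. The submitters' processing notes list CASAVA 1.8.2, Bowtie2 2.2.3, TopHat2 2.0.12 and Cufflinks 2.2.1 without their roles, and the genome build is not given in the sources used here. The authors deposited FPKM values for 152210 transcripts, known and assembled, with 1 column per library. Of 15 FPKM columns, 3 matched no sample and were not used, nor were the values of the authors' own comparisons of groups. The column headed MD4 was taken as ND mouse 4, which is an inference. It rests on the number, the letter R and the authors' header of their ND against HFD comparison, which puts this column among the ND libraries.

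The annotation was GENCODE M21 (GRCm38), which held 77000 of the 78786 known transcripts of the table, 87.6% of them at an identical position, so the coordinates of the table were read as GRCm38. Known transcripts and assembled ones matched fully or in part to them were summed per gene, and 9326 other rows were left out. The 8 genes rest on 53 rows. Annotated genes that overlap *Abcg1*, *Nceh1*, *Soat1* and *Ch25h* had no value of their own. The FPKM carry no read depth and are model estimates, so that no reads were recovered and no count test was run.

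The test was limma (version 3.58.1, run in R 4.3.3) on log2 values of FPKM plus 1, with a coefficient per group over all 12 libraries, empirical Bayes moderation without trend, and no block or covariate. A fold change on this scale understates the change of low genes. Single ratios were compared with exact two-sided permutation tests, whose smallest p with 3 against 3 mice is 0.1. The labels give mouse numbers within groups, and p-values measure the spread between these mice. The mice were picked as representative of larger groups, so this spread can differ from that of the whole groups. The method was tested on simulated data before use. Tried in turn were 0.1 as the pseudocount, dropping the filter or setting it at a mean of 5 FPKM, 3 scalings, fitting the compared groups alone, a trend, array weights, the letter R as covariate, leaving out those libraries or each library in turn, the adjusted p alone, the highest row per gene, no assembled rows, and the mouse number as a replicate block. Promoter windows are from RefSeq (GRCm38.p6) and were found for 6 of the 8 genes, not for *Abcg1* and *Apoc1*. Named beside the 8 genes are listed pathway and marker genes and the 3 genes with the highest r to each tested one. Some genes of the lists are counted in the totals and not reported here by name. The members and lists were chosen with earlier results of these data known. Tables and plots were made with Python 3.11.15, pandas 2.3.3, numpy 2.4.6, scipy 1.17.1 and matplotlib 3.10.9.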

Additional observations from a re-analysis of the deposited data

How the results depend on the processing

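Of 35 values of single genes, each against up to 27 alternatives, 839 recalculations kept direction and call, 56 lost the call, 14 gained it and 15 turned direction. For LU against HFD, 2 genes were called with the highest row per gene, 5 without the letter R libraries, and 2 to 4 when single libraries were left out. For CLE against ND, 1 was called without the filter, 0 with only the groups compared, 0 without the letter R libraries, and 1 to 3 when single libraries were left out. For LU against ND, 0 were called without the letter R libraries. In these cases the cause was not tested. The direction turned only for differences that were not called. For *Apoe* in CLE against ND the log2 fold change was 0.0205 with equal totals, 0.0858 with quantile normalization, 0.0519 with array weights, 0.0688 with the highest row, and -0.10 to 0.10 when single libraries were left out. For *Apoe* in LU against ND it was 0.0858 with quantile normalization and 9.4e-05 with the highest row. For *Apoc1* in LU against ND it was 0.21 without the letter R libraries and -0.275 to 0.0545 when single libraries were left out. Leaving out single libraries gave -0.13 to 0.0401 for *Abcg1* in CLE against HFD and -0.11 to 0.0482 for *Abca1* in LU against HFD. The scalings moved the median of all genes by less than 0.1 on the log2 scale. With a direct repeat of up to 3 differences, a limit chosen after seeing the data, 1 gene rather than 0 held the motif.

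The mouse numbers were also fitted as a replicate block over the ND, CLE and LU groups, since HFD shares no number with them. The 5 same-numbered pairs had correlations of their deviations from the group means between -0.10 and 0.19, so the numbers were not taken to pair the mice. With the block, 0 genes were called for CLE against ND, 2 for LU against ND and 0 for CLE against LU, and the value of *Apoe* in CLE against ND was 0.15.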
